A study of Rattus norvegicus with 12 samples.

Results

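The immunoproteasome and class I antigen presentation genes were followed in tumour-derived fibroblasts and their adherent parent line. The 9 genes were Psmb8, Psmb9, Psmb10, Psme1 and Psme2, which encode proteasome subunits, and Tap1, Tap2, Tapbp and B2m, which encode proteins of peptide transport and class I assembly. They were chosen by gene symbol, and every array probe set whose only annotated symbol was one of them was taken. All 9 were found, on 12 probe sets, out of 14217 genes and 31042 probe sets tested. Psme1, Tap1 and B2m had more than 1 probe set, and the brightest stood for the gene where genes were counted.

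Both groups derived from F111, a fibroblast line of the Fischer rat whose adherent cultures, by the study's karyotypes, already carried chromosome changes. Tumor cells were cultured out of subcutaneous tumours of homozygous nude mice (Nu/Nu), collected 3 months after injection of F111 cells that had survived 16 h in suspension on agarose. A16 cells were F111 cells kept adherent on plastic for 16 h. Further chromosome changes were seen in the tumour-derived cells, and the explants came from a mouse host, so Tumor differed from A16 in selection, growth in an animal and a return to culture together, and by the study's methods also in serum, and these cannot be told apart. Each group had 3 arrays, namely replicate 1, replicate 2 and technical replicate 2, of which the labels call the first pair biological replicates. Technical replicate 2 was averaged with replicate 1, which gave n = 2 replicates in each group.

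Proteasomes cut cell proteins into peptides. In the immunoproteasome the catalytic subunits Psmb8, Psmb9 and Psmb10 (also called LMP7, LMP2 and MECL-1) stand in the places of the constitutive Psmb5, Psmb6 and Psmb7, and the PA28 activator made of Psme1 and Psme2 can cap the core. The Tap1 and Tap2 transporter carries peptides into the endoplasmic reticulum, tapasin (Tapbp) holds class I molecules at the transporter, and B2m is the light chain that every classical class I molecule needs. Interferons raise most of these genes in many cell types, partly through an interferon-stimulated response element that Irf9-containing complexes and other interferon regulatory factors bind.

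Over all probe sets, replicate 1 correlated with the other arrays of its group at 0.9914 to 0.9969. Arrays of different groups correlated at 0.9332 to 0.949. Values are log2 RMA intensity, and the array medians lay between 6.62 and 6.64. The poly-A RNA spikes, which are added before labelling, averaged 4.82 to 4.92 on the Tumor arrays and 7.51 to 7.99 on the A16 arrays. The hybridisation spikes, added after labelling, went the other way, at 10.56 to 10.83 on the Tumor arrays and 9.37 to 9.80 on the A16 arrays. Beta-actin signal at the 3 prime end exceeded that at the 5 prime end by 2.25 to 2.37 in Tumor and 0.64 to 0.71 in A16, and for Gapdh this gap was 0.25 to 0.33 in Tumor and -0.06 to 0.00 in A16. The Trp control probe sets, for which no transcript is added, averaged 4.21 to 4.22 in Tumor and 4.21 to 4.30 in A16. The Tumor poly-A spikes lay near this level, and whether they were added was not checked here. Labelling, RNA quality and group therefore cannot be told apart.

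The core of the interferon-stimulated response element, taken as GAAA, any 2 bases and GAAA again, was searched on both strands in the RefSeq promoter windows of the GRCr8 assembly, which run from 250 bases before to 50 after each gene's start. It was found in 7 of the 9 members, against 3.77% of all 27457 windows. It is printed in capitals because most members hold it and the selection by symbol did not use it. The start on which a window is built differs from the outer bound of the gene in Psmb8, Psmb9, Psme1, Psme2, Tapbp and B2m, by 9 to 304 bases, and the Psmb8 match spans the start of its window. The Psmb8 and Tap1 matches lie on the strand opposite to the gene, and the other matches lie on the gene's own strand. Psmb8 lies at chr20:4657016-4657045 (minus strand), Psmb10 upstream at chr19:50743346-50743375 and downstream at chr19:50743290-50743319 (minus strand), and Psme2 at chr15:33052785-33052814 (minus strand). Tap1 lies at chr20:4668645-4668674, Tap2 at chr20:4652318-4652347 and Tapbp at chr20:4967878-4967907 (all minus strand), and B2m at chr3:129549170-129549199 (plus strand).
Psmb8: gtgctgtggcTTTCGCTTTCacttccttgt
Psmb10, upstream match: aagcaaaggcGAAAGTGAAAgagaagatgc
Psmb10, downstream match: agtggggggtGAAAGCGAAAgtaggaagcg
Psme2: cctggagagtGAAAGCGAAAgctggggctg
Tap1: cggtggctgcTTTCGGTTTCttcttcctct
Tap2: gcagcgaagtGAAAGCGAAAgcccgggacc
Tapbp: gagggaaaatGAAAGTGAAAggaaacagac
B2m: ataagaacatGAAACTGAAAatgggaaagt

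The downstream Psmb10 match, Psme2 and Tap2 had GC between the GAAA repeats, and Psmb8 had the same core read on its opposite strand. The Tapbp window held a further match that overlaps the one printed. Psmb9 and Psme1 had no match, which says only that these letters are not in these windows. The start of Psmb9 lies 457 bases from that of Tap1, which is transcribed in the opposite direction, and the Tap1 match lies between both starts. The gamma-interferon activation motif TTCNNNGAA, which reads alike on both strands, was in the Psmb8 window alone among the members, and in 8.68% of all windows. Matches are descriptions of letters, not of bound sites.

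The 3 catalytic immunoproteasome subunits moved apart in Tumor cells. Psmb8 was 3.20-fold higher, Psmb10 was 4.98-fold lower, and Psmb9 was lower by less than 2-fold. Calls needed a limma adjusted p under 0.05 together with a 2-fold change or more, which 5.51% of all probe sets met as higher and 6.39% as lower in Tumor.

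Psmb8, which takes the place of the chymotrypsin-like Psmb5, had 8.24, 8.05 and 8.28 in Tumor replicate 1, technical replicate 2 and replicate 2, against 6.39, 6.43 and 6.66 on the A16 arrays in the same order. The lowest Tumor array lay well above the highest A16 array. The log2 difference was 1.68 ± 0.13 (SE, limma adjusted p = 0.000285). In A16 the probe set lay at about the median of the arrays, and detection calls were not used here. In these bulk cultures, a change in the number of cells that carry a transcript and a change in RNA per cell cannot be told apart.

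Psmb10, which takes the place of the trypsin-like Psmb7, had 8.10, 7.71 and 7.82 in Tumor and 10.22, 10.41 and 10.04 in A16. No Tumor array came within 1 log2 unit of an A16 array. The log2 difference was -2.31 ± 0.13 (SE, limma adjusted p = 8.08e-05), the largest change among the 12 member probe sets in either direction. 

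Psmb9, which takes the place of the caspase-like Psmb6, had 9.45, 9.30 and 9.39 in Tumor and 9.93, 10.08 and 10.46 in A16. The groups did not overlap, and A16 replicate 2 stood highest. The log2 difference was -0.85 ± 0.17 (SE, limma adjusted p = 0.00926), a 1.81-fold lower level that passed the adjusted p but not the fold. Without A16 replicate 1 it was -1.08 and was called, and without A16 replicate 2 it was -0.63. It missed the adjusted p without Tumor replicate 1 (limma adjusted p = 0.0579), without Tumor replicate 2 (limma adjusted p = 0.051) and with a PLIER offset of 1 (limma adjusted p = 0.0585).

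**Figure D1:**
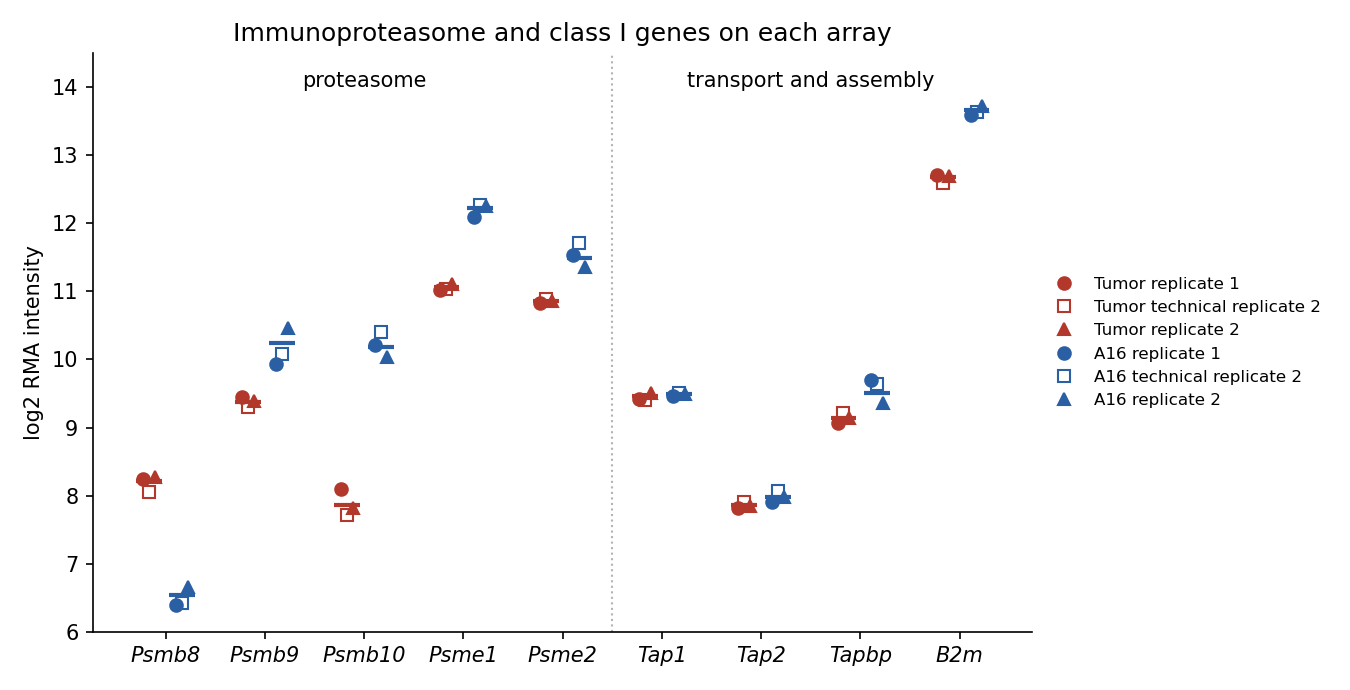
Log2 RMA intensity (vertical axis) of the 9 genes by their brightest probe set on each array. Red symbols are Tumor and blue symbols A16, circles are replicate 1, open squares technical replicate 2, triangles replicate 2, and bars are group means over n = 2 replicates. Psmb8 alone has all Tumor arrays above all A16 arrays, and Tap1 and Tap2 overlap.

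Both subunits of the PA28 activator were lower in Tumor cells, Psme1 past 2-fold and Psme2 short of it. Psme1 (PA28 alpha) had 11.01, 11.03 and 11.11 in Tumor and 12.10, 12.26 and 12.26 in A16. The arrays were tightly grouped and about 1 log2 unit apart. The log2 difference was -1.15 ± 0.11 (SE, limma adjusted p = 0.000598), or 2.23-fold lower. A dimmer Psme1 probe set, near the array median, had 6.72, 6.62 and 6.64 in Tumor and 6.81, 6.84 and 6.18 in A16. These overlapped, with a difference of 0.15 ± 0.21 (SE, limma adjusted p = 0.64), so the 2 probe sets of the gene did not give the same call.

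Psme2 (PA28 beta), the partner of Psme1, had 10.83, 10.88 and 10.87 in Tumor and 11.53, 11.71 and 11.36 in A16. Every Tumor array lay below every A16 array. The log2 difference of -0.63 ± 0.13 (SE, limma adjusted p = 0.0117) passed the adjusted p at 1.55-fold, but not without Tumor replicate 1 (limma adjusted p = 0.0771) or Tumor replicate 2 (limma adjusted p = 0.069). Psme1 and Psme2 are neighbouring genes on chromosome 15.

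Among the transport and assembly genes, B2m was lower by almost exactly the 2-fold limit, and the transporter genes gave values close to 0. B2m had 12.71, 12.59 and 12.70 in Tumor and 13.59, 13.64 and 13.72 in A16. The groups were clearly apart, on the brightest of all member probe sets. The log2 difference was -0.99 ± 0.11 (SE, limma adjusted p = 0.00106), or 1.99-fold lower, and it was called when Tumor replicate 2 (-1.02) or A16 replicate 1 (-1.04) was left out. The second B2m probe set had 10.38, 10.16 and 10.28 in Tumor and 10.35, 10.54 and 11.06 in A16. Here the groups overlapped and the difference was -0.48 ± 0.20 (SE, limma adjusted p = 0.129), with A16 replicate 2 well above the other A16 arrays. It was -0.78 without A16 replicate 1 (limma adjusted p = 0.000913) and -0.17 without A16 replicate 2, and with the replicate number as a block it passed the threshold (limma adjusted p = 0.0438).

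Tap1, one chain of the peptide transporter, had 9.42, 9.41 and 9.51 in Tumor and 9.47, 9.51 and 9.50 in A16. The ranges overlapped and the difference was -0.03 ± 0.11 (SE, limma adjusted p = 0.87). Tap2, the other chain, had 7.83, 7.91 and 7.85 in Tumor and 7.91, 8.07 and 7.98 in A16, with a difference of -0.13 ± 0.11 (SE, limma adjusted p = 0.44). A dim second Tap1 probe set, at 5.19 to 5.43 in Tumor and 5.23 to 5.35 in A16, differed by -0.01 ± 0.13 (SE). Its sign turned under several alternative settings.

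Tapbp had 9.07, 9.21 and 9.15 in Tumor and 9.70, 9.63 and 9.36 in A16. The arrays did not overlap, but A16 replicate 2 lay near the Tumor arrays. The difference of -0.37 ± 0.14 (SE, limma adjusted p = 0.0879) did not pass the threshold. It passed without A16 replicate 2 (-0.52, limma adjusted p = 0.0137) and with technical replicate 2 averaged with replicate 2 (limma adjusted p = 0.00786) or kept as a replicate of its own (limma adjusted p = 0.0119).

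Set side by side, the 5 proteasome genes held all 3 of the calls among the members. Of these 5, 1 was called higher and 2 lower, and with any fold 4 passed the adjusted p as lower and 1 as higher, with a median log2 difference of -0.85. Of the 4 transport and assembly genes, limma called 0, and 1 (B2m) passed the adjusted p as lower, with a median of -0.25. At an unadjusted p under 0.05, limma gave 2 of these 4 as lower and 0 as higher, and the methods' t-test gave the same counts. The share of all genes past that unadjusted p was not computed, here or for the lists below, so these counts stand without a background. Over all 14217 genes the median was 0.03, 5.45% were called higher, 5.44% lower, and with any fold 17.4% passed the adjusted p as higher and 16.6% as lower. The difference between both gene groups was not tested, and with 5 and 4 genes the counts describe these genes only. By arrays, 1 member probe set had all Tumor arrays above A16, 6 had all below and 5 overlapped. Among all probe sets 27.6% had every Tumor array above, 25.0% had every one below and 52.6% did not overlap.

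**Figure D2:**
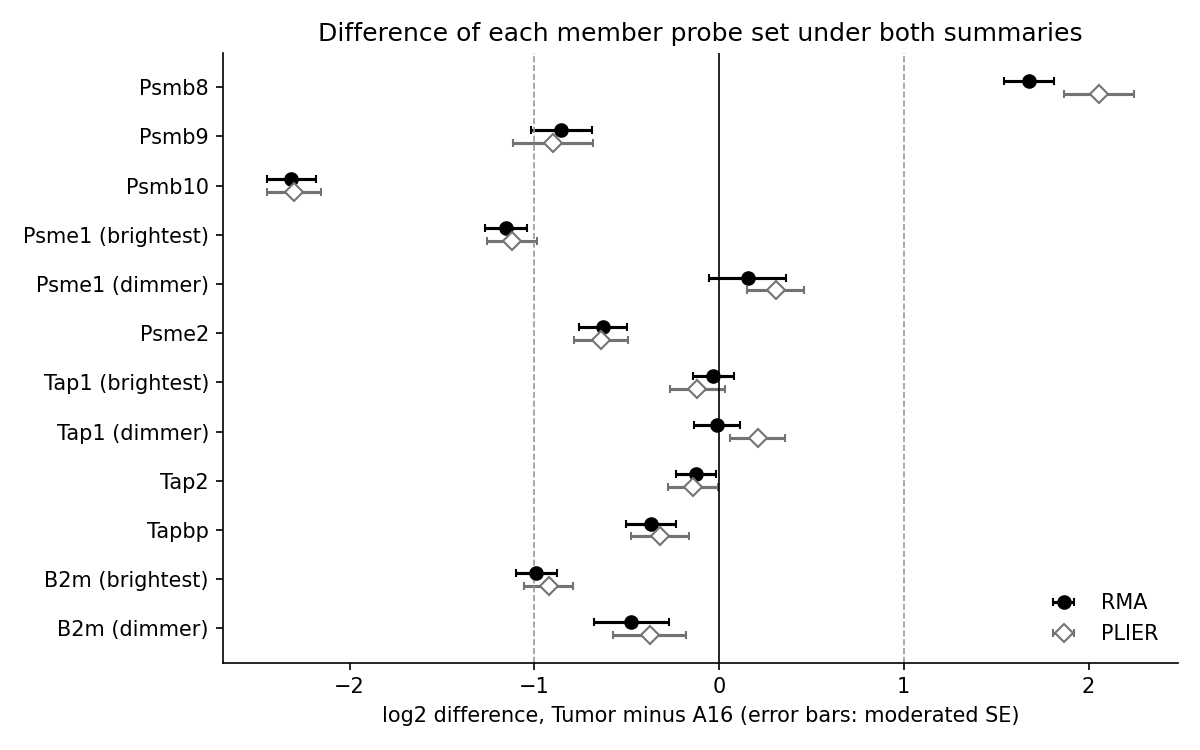
Log2 difference, Tumor minus A16, of each of the 12 member probe sets, with moderated standard errors. Filled circles are RMA values and open diamonds PLIER values of the same arrays, and dashed lines mark a 2-fold change. Both summaries put Psmb8 above the upper line and Psmb10 and the brightest Psme1 probe set below the lower line.

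The arrays were also summarised with PLIER, and the 3 calls were made there too. The PLIER log2 differences were 2.06 for Psmb8 (4.16-fold, limma adjusted p = 0.000594), -2.30 for Psmb10 and -1.12 for the brightest Psme1 probe set. Psmb9 gave -0.90, Psme2 -0.64 and B2m -0.92, all under 2-fold. Leaving out A16 replicate 1 gave 4 lower calls among the members rather than 2, with Psmb9 and B2m added. These summaries share the same scans and are not independent samples.

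Among the other proteasome lists, the single call was that of an assembly factor. Over all genes 5.45% were called higher and 5.44% lower. Psmb5, the constitutive counterpart of Psmb8, had 12.64, 12.61 and 12.84 in Tumor and 13.09, 13.19 and 12.91 in A16, a difference of -0.29 ± 0.14 (SE, limma adjusted p = 0.16). Psmb7, the counterpart of Psmb10, differed by 0.07 ± 0.13 (SE, limma adjusted p = 0.73), and its sign turned without Tumor replicate 2. Psmb6, the counterpart of Psmb9, had no probe set of its own. Neither Psmb5 nor Psmb7 passed an unadjusted p of 0.05 by limma or by the methods' t-test. Among the 11 other 20S core subunits limma called 0, with log2 differences from -0.91 (Psmb4) to 0.51 (Psma2). Of the 11, limma gave 1 as higher and 3 as lower at an unadjusted p under 0.05, and the methods' t-test gave 0 and 3.

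The 18 measured subunits of the 19S regulator, which recognises and unfolds substrates, also had 0 calls by limma, with a median log2 difference of 0.06. Unadjusted, at p under 0.05, limma gave 5 as higher and 3 as lower, and the methods' t-test gave 4 and 2. Of the 8 measured assembly factors, Psmd10 (gankyrin) was called higher at 1.15 ± 0.12 (SE), and the other 7 were not called. This 1 of 8 stands against 5.45% of all genes called higher. Psme4, another core activator, was higher by 0.50 and was not called. It passed the adjusted p at under 2-fold (limma adjusted p = 0.0337), but not with PLIER (limma adjusted p = 0.102).

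**Figure D3:**
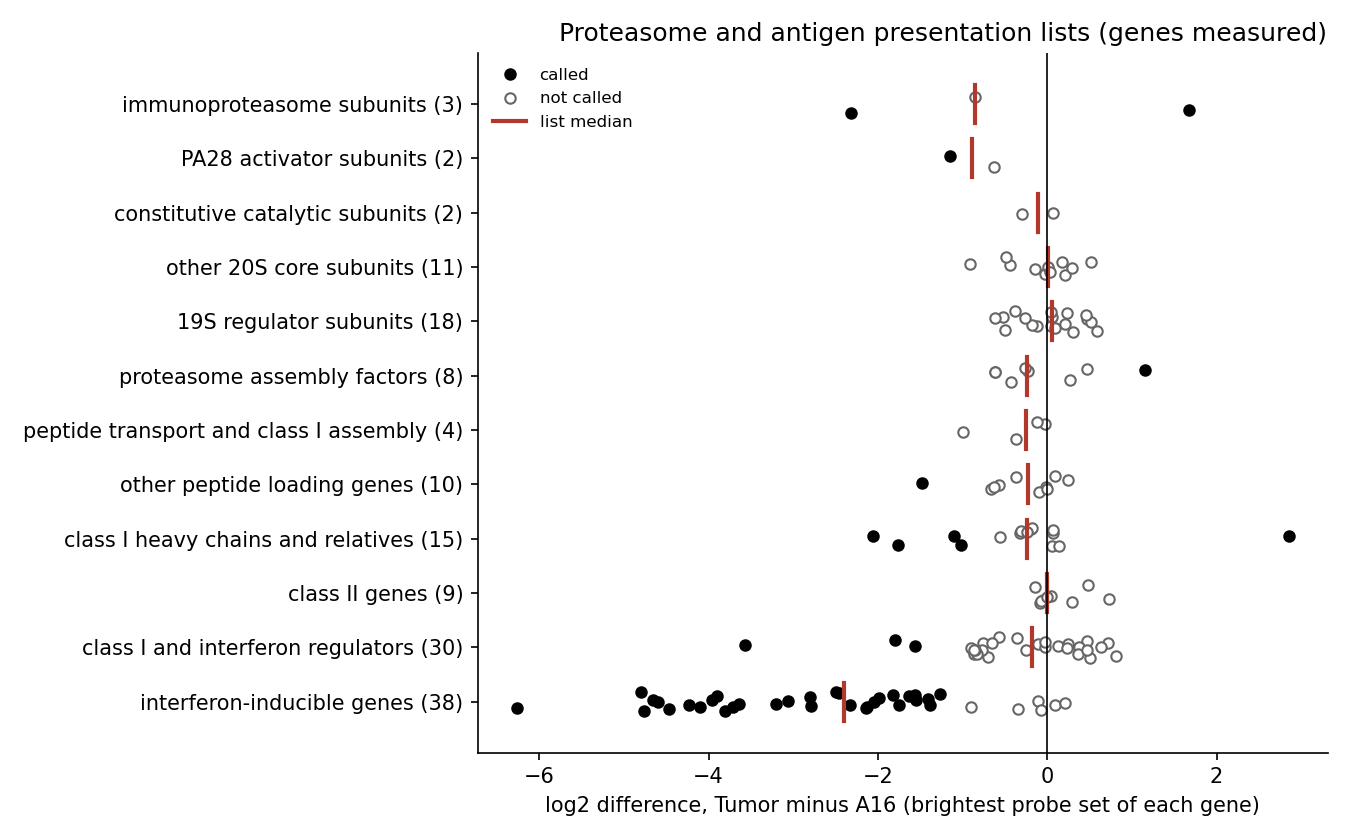
Log2 difference, Tumor minus A16, of each measured gene in 12 lists, with the number of genes measured in brackets. Filled points were called, open points were not, and the vertical red mark is the median of the list. The spread of the 3 immunoproteasome subunits exceeds that of the other 20S subunits, and the interferon-inducible list lies mostly below 0.

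Further along the pathway, Thop1, a cytosolic peptidase that degrades peptides, was called lower at -1.48 ± 0.18 (SE), the single call among 10 other peptide loading genes. Over all genes 5.44% were called lower. Erap1, which trims peptides in the endoplasmic reticulum, had -0.57 and passed the adjusted p at under 2-fold. Canx and Pdia3, chaperones of class I folding, had -0.01 each. Calr, another such chaperone, had -0.37.

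Class I heavy chains are encoded in the rat by the many similar RT1 genes, and probe sets can cross-hybridise among them. Across 26 RT1 class I probe sets, limma called 0 higher and 7 lower, against 5.51% and 6.39% of all probe sets. The median was -0.23, and 4 of the 7 were probe sets of RT1-S3. With PLIER the counts were 1 higher and 12 lower. PLIER called 4696 of all 31042 probe sets either way, and RMA called 3694. Without adjustment limma gave 0 as higher and 11 as lower at p under 0.05, and the methods' t-test gave 1 and 8. The share of all probe sets past this unadjusted p was not computed. RT1-S3 had 7.08, 6.94 and 7.00 in Tumor and 8.97, 8.93 and 9.17 in A16 on its brightest probe set, a difference of -2.06 ± 0.12 (SE, limma adjusted p = 9.37e-05). RT1-N3 (-1.10) and RT1-CE16 (-1.02) were also called lower, while RT1-CE12 had 0.07 and RT1-M3-1 had 0.14. Fcgrt, a class I-like receptor for immunoglobulin G that pairs with B2m, was lower at -1.77 ± 0.12 (SE), and Cd1d1, a lipid-presenting relative that also pairs with B2m, was higher at 2.85 ± 0.11 (SE). The Cd1d1 probe set was dim in A16, and its difference was 3.53 with PLIER and 5.71 with the PLIER offset of 1. In the class II list limma called 0 of 9 genes, and Cd74, the invariant chain, lay at 5.11 to 5.22 in Tumor and 5.22 to 5.47 in A16. With any fold, 2 of the 9 passed the adjusted p as higher, RT1-DMa (0.72) and RT1-DMb (0.48), and 0 as lower. Over all genes these shares were 17.4% and 16.6%. With PLIER, Ctss was past the call rule at 1.17 (limma adjusted p = 0.00178), against 0.04 with RMA. In this list limma gave 3 genes as higher and 0 as lower at an unadjusted p under 0.05, and the methods' t-test gave 0 and 0.

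Genes that answer to interferon were mostly lower in Tumor cells. Of 38 measured interferon-inducible genes, limma called 32 lower and 0 higher, with a median log2 difference of -2.39, against 5.44% of all genes called lower. Both limma and the methods' t-test gave 33 as lower and 0 as higher at an unadjusted p under 0.05. Rsad2, an antiviral enzyme, had -6.27 ± 0.15 (SE, limma adjusted p = 7.59e-06), Rtp4 -4.79, Mx2 -4.76 and Ifit3 -4.66. In Tumor all 4 lay below the array median, so these sizes and their order are uncertain, and PLIER gave -6.40, -5.69, -5.91 and -4.80 for the same genes. The response element core was in 19 of the 32 promoter windows matched for this list. Psmb8 was higher with the core in its window, and Psmb10 was lower with 2 matches.

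Among 30 measured regulators of interferon signalling and class I transcription, 3 were called lower, against 5.44% of all genes. Irf9, a DNA-binding factor of the type I interferon response, had 6.76, 6.84 and 6.83 in Tumor and 10.29, 10.16 and 10.55 in A16. It was 11.9-fold lower, at -3.57 ± 0.14 (SE, limma adjusted p = 2.24e-05). Ifnar1, a chain of the type I interferon receptor, had -1.79 ± 0.15 (SE), and Nfkb2, a kappa B subunit precursor, had -1.56 ± 0.17 (SE). With any fold, 7 of the 30 passed the adjusted p as higher and 13 as lower, against 17.4% and 16.6% of all genes. Ifngr1 (-0.76) and Ifngr2 (-0.87) were among the lower ones. With PLIER, Ifngr2 (-1.06, limma adjusted p = 0.00219) and Creb1 (-1.05, limma adjusted p = 0.00481) were also past the call rule, both lower. Irf1, an activator of Psmb9 and Tap1, had 9.48, 9.63 and 9.79 in Tumor and 9.32, 9.46 and 9.70 in A16, which overlapped, and differed by 0.13 ± 0.15 (SE). Nlrc5, the class I transactivator, was dim in both groups at 5.44 to 5.96 in Tumor and 5.30 to 5.64 in A16. Its difference was 0.23 ± 0.14 (SE, limma adjusted p = 0.269), against 0.72 with PLIER (limma adjusted p = 0.0114). At an unadjusted p under 0.05, limma gave 9 of the 30 as higher and 13 as lower, and the methods' t-test gave 6 and 11.

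Psmb8, Psmb9, Tap1 and Tap2 lie together in the class II part of the rat major histocompatibility complex on chromosome 20, in the order Tap2, Psmb8, Tap1 and Psmb9 within 36165 bases of GRCr8. Adjacent genes of this block gave values of -0.13, 1.68, -0.03 and -0.85 in that order. On one side RT1-Db1 had 0.00, RT1-Ba 0.30 and RT1-Bb -0.05. On the other side RT1-DMb had 0.48, RT1-DMa 0.72 and Brd2 -0.56, and of these 6 neighbours limma called 0. Of these 6, limma gave 3 as higher and 1 as lower at an unadjusted p under 0.05, and the methods' t-test gave 0 and 0. Of 394 other genes measured on chromosome 20, 16 were called higher and 33 lower, with a median of -0.06. Over all genes 5.45% were called higher and 5.44% lower.

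**Figure D4:**
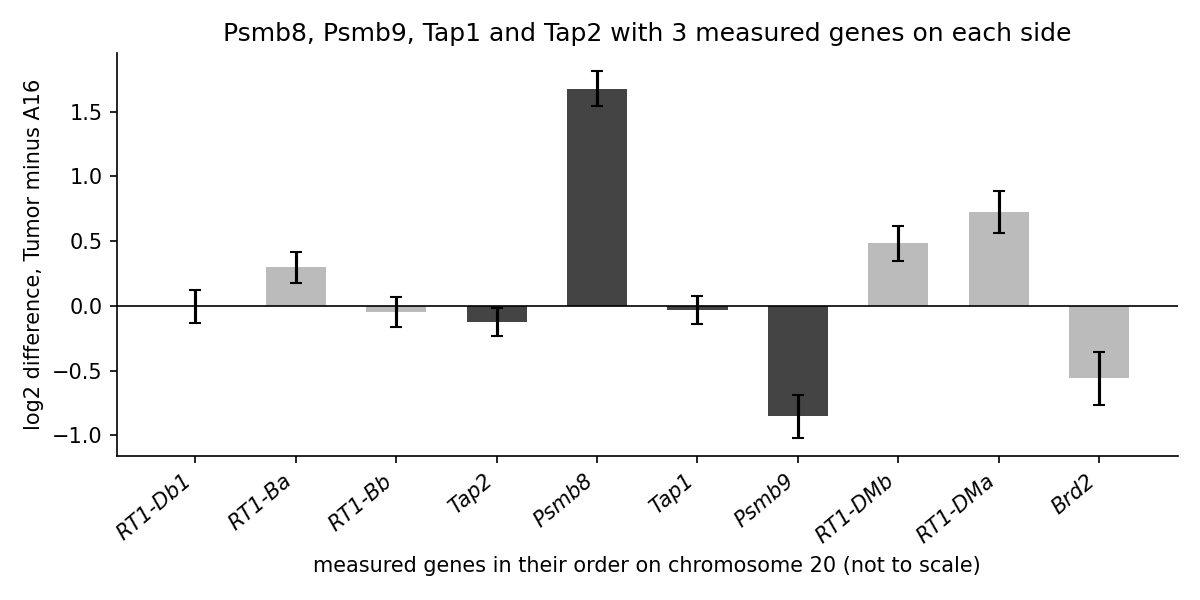
Log2 difference, Tumor minus A16, with moderated standard errors, for the 4 clustered members (dark bars) and 3 measured genes on each side (light bars) in chromosome order, not to scale. Psmb8 stands above 0 between Tap2 and Tap1, which lie near 0.

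The genes whose centred profile over the 6 arrays was closest to that of Psmb8 were Bambi, Tbc1d8 and Frrs1, with root mean square distances of 0.068, 0.068 and 0.069 log2 units. Bambi, a pseudoreceptor of transforming growth factor beta signalling, had 10.52, 10.45 and 10.71 in Tumor and 8.65, 8.85 and 8.98 in A16. The other members were left out of this ranking.

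Markers of other cells were examined because the Tumor cultures came from explants, and immune cells express Psmb8 strongly. Of 19 measured leukocyte markers, 3 were called higher in Tumor and 0 lower by limma, against 5.45% and 5.44% of all genes. Csf1r had 3.14 ± 0.14, Itgax 1.62 ± 0.11 and Cd68 1.07 ± 0.12 (SE). Csf1r was dim in A16, and its difference was 4.20 with PLIER and 5.17 with the PLIER offset of 1. The summed level of the list, which is the log2 of its summed intensities and weighs bright genes most, was 11.38 to 11.46 in Tumor. In A16 it was 10.91 to 11.05. The pan-leukocyte marker Ptprc lay at 4.78 to 5.42 in Tumor and 5.07 to 5.20 in A16, and Tyrobp and Cd3e were also below the array median in both groups. Above it in Tumor were Cd14 at 9.70 to 9.85 (9.86 to 10.01 in A16), Laptm5 at 7.47 to 7.61 (7.13 to 7.32 in A16) and Lyz2 at 6.74 to 7.03 (6.41 to 6.74 in A16). At an unadjusted p under 0.05, limma gave 4 of the list as higher and 0 as lower, and the methods' t-test gave 3 and 0. Of 13 fibroblast markers, 4 were called lower, led by Col1a1 at -3.46 ± 0.21 (SE), 1 was called higher, and Vim stayed bright at 14.2 in every Tumor array.

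Of 10 epithelial markers 1 was called, Krt8, which was 2.83-fold higher. Over all genes 5.45% were called higher, 5.44% lower and 10.9% either way, for this list and those below. Cdh1 had 0.93 at under 2-fold, and 1.44 with PLIER (limma adjusted p = 0.00071). The summed level was 11.20 to 11.35 in Tumor and 10.06 to 10.21 in A16. Krt8 itself, at 10.94 to 11.09 in Tumor and 9.39 to 9.64 in A16, made up most of it. The median log2 difference of the list was 0.03. Of 10 muscle and fat markers 1 was called, Cfd, lower at -1.05 ± 0.11 (SE). The summed level was 9.57 to 9.78 in Tumor and 9.97 to 10.14 in A16. With PLIER, Fabp4 was also past the call rule, higher at 1.03. Of 9 endothelial markers limma called 0, Vwf had 0.73, and the summed level was 9.45 to 9.56 in Tumor and 9.64 to 9.87 in A16. With PLIER, Vwf (1.05), Tie1 (-1.63) and Egfl7 (-1.08) were past the call rule. For these 9, limma gave 2 as higher and 2 as lower at an unadjusted p under 0.05, and the methods' t-test gave 1 and 0. Host cells would be mouse cells on rat probes, so low or raised marker values cannot be read as the number of host cells. The part of other cells in the member differences was not tested.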

How the data were processed

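Biotinylated cRNA of Tumor and A16 cells was hybridised to Affymetrix rat expression arrays. The 12 sample records were 6 arrays, each summarised by RMA and by PLIER. Per the study's methods the authors background-adjusted the scans in the scanner software and normalised them in Avadis, with RMA and PLIER versions not given in the sources used here, where the submitters' processing notes name both. The authors deposited both as linear array intensity, and log2 was taken here. PLIER values had a floor of 16. The choice of summary can move dim probe sets, and precision is limited by having few arrays.

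Of 31099 probe sets, 57 controls were left out. The platform annotation gave 1 symbol to 20826, several to 436 and none to 9780. Promoters were RefSeq windows of GRCr8, and all 9 members had one. Tumor was compared with A16 in limma 3.58.1 under R 4.3.3 (two-sided moderated test from lmFit and eBayes, with p adjusted by Benjamini-Hochberg over 31042 probe sets), with n = 2 replicates per group after technical replicate 2, which has no biological number in the labels, was averaged with replicate 1. The labels call replicates 1 and 2 biological without naming separate cultures or animals, and the p-values reflect the spread of these samples alone, which may be technical. The test was checked on simulated data. The methods' t-test (equal variances, on the same replicates) was an alternative, as were PLIER, other uses of technical replicate 2, each replicate left out, a replicate block, a filter on dim probe sets, centring and a variance trend.

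The members and gene lists were chosen with earlier results of these data known. Named genes were the members, Psmb5, Psmb6, Psmb7, up to 4 called genes per list by size of change, Nlrc5, Irf1, the 3 neighbours on each side of the Psmb8 block and the 3 nearest profiles to Psmb8, and 1 further item of the rule is not reported here. Other genes (Psmb4, Psma2, Psme4, Erap1, Canx, Pdia3, Calr, RT1-CE12, RT1-M3-1, Cd74, Ptprc, Tyrobp, Cd3e, Cd14, Laptm5, Lyz2, Cdh1, Vwf and Vim) were named after their values were seen. Tie1, Egfl7, Fabp4, Ctss, Ifngr1, Ifngr2 and Creb1 were also named in this way. Python 3.11.15 drew the figures.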

Additional observations from a re-analysis of the deposited data

How the results depend on the processing

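The 3 member calls (1 higher, 2 lower) were made under PLIER, with technical replicate 2 left out or used otherwise, with the dim filter, centring and the variance trend. The higher count was 1 in every leave-one-out fit, and the lower count ran from 2 to 4. Leaving out a replicate left 1 sample in that group, assumed to vary like the other group. With any fold, 1 member probe set was higher and 5 were lower, and both counts moved when a replicate was left out. Without A16 replicate 1, the 2 Psme1 probe sets went opposite ways, at -1.19 (brightest) and 0.48 (dimmer). With the methods' t-test the counts were 1 and 2 at an unadjusted p under 0.05 with 2-fold, but 0 and 0 after Benjamini-Hochberg adjustment, where 12 of all probe sets remained past the threshold, against 3100 unadjusted. The main count over all probe sets was 3694, with 5764 when the PLIER floor was replaced by an offset of 1, 9879 with any fold, and 3385 to 4305 when a replicate was left out.

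With the replicate number as a block the counts were 1 and 2 for the members and 3750 for all probe sets, so no count at 2-fold changed, but with any fold 6 members were lower rather than 5, with the second B2m probe set added. The labels number the replicates in both groups, but with 2 pairs, whose deviations correlated at 0.1205, they were not taken to pair the samples.

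Signs turned only for small differences. Without 1 replicate, the dim Psme1 probe set ran from -0.17 to 0.48, Tap1 from -0.078 to 0.017, the dim Tap1 probe set from -0.13 to 0.11 (0.02 without A16 replicate 2), Psmb7 from -0.045 to 0.19, Irf1 from -0.025 to 0.28, RT1-Db1 from -0.12 to 0.12 (0.02 without A16 replicate 2) and RT1-Bb from -0.11 to 0.02. The dim Tap1 probe set gave 0.21 under PLIER, 0.35 with the PLIER offset of 1, and 0.05 and 0.04 with technical replicate 2 averaged with replicate 2 or as a replicate of its own. In those 4 settings RT1-Db1 gave 0.046, 0.054, 0.018 and 0.044. Psmb7 gave -0.007 with technical replicate 2 averaged with replicate 2, and RT1-Bb gave 0.035 with it left out. Averaging the probe sets of a gene gave -0.50 for Psme1 and -0.73 for B2m. The causes were not tested.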
